A study of Oryctolagus cuniculus with 54 samples.

Results

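The genes described here are 100 genes of the rabbit lung whose level was higher on the 11th than on the 6th day after term birth. They were chosen on the 7 libraries of these ages that were read in sequencing run 3, with the level of a gene in a library expressed as log2(CPM + 1), where CPM is the count of the gene scaled to a common library total of 1000000 counts. A gene had to have a mean of at least 2.6 at T42, a mean more than 0.5 higher at T42 than at T37, and all 3 T42 animals above all 4 T37 animals. Among 29587 genes, 8804 reached the T42 level and 206 met all conditions, and the 100 with the largest difference between the means were kept and numbered by it, so that rank 1 had the largest.

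The series followed normal and preterm lung development in 45 New Zealand White rabbits with 54 libraries made from the 3′ ends of lung RNA. Fetal pups were taken by Caesarean section and sampled at once on gestational days 20, 23, 25, 27, 28 and 29 (F20 to F29, with 4, 4, 3, 3, 3 and 3 animals). Term pups were born naturally on day 31, stayed with their mothers in room air and were sampled at birth (T31, 6 animals) or 4, 6 and 11 days later (T35, 3 animals, T37, 4 animals, and T42, 3 animals). Preterm pups were delivered by Caesarean section on day 28, kept in incubators in room air and fed a milk replacer by tube. They were sampled 1 hour after delivery (P0), after 3 days (P3) and after 7 days (P7), with 3 animals at each age. P7 and T35 pups therefore had the same age from conception, but the P7 pups had breathed for 7 days and the T35 pups for 4, and the preterm and term pups also differed in mode of delivery, food and housing. The RNA came from the homogenized right lung, or from whole lungs at F20 and F23 according to the study's methods, which also state that the pups of a time point came from different dams. The labels name no drug and no engineered allele in any group.

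The last part of lung development is alveolarization, in which the walls of the primitive airspaces put out ridges, called secondary septa, that divide them into alveoli. Epithelial cells that make surfactant and thin cells for gas exchange mature along with the capillary bed, elastic fibres are laid down at the edges of the septa, and immune cells settle in the tissue after birth. In the rabbit this process goes on after term birth, so the interval between T37 and T42 falls within it. The study asked how the transcriptome moves through these stages and what preterm birth changes.

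The table names genes only by Ensembl identifier, and the reference list of rabbit genes used here pairs 0 of these identifiers with a symbol. Gene functions, cell type markers and pathway lists could therefore not be applied to these genes, the labelled tissue could not be checked against its markers, and the members are called by their rank. The 4 identifiers given below, and the members singled out by rank, were chosen after their values had been seen. Because whole lung was measured, a gene that comes from more cells of a type and a gene with more RNA per cell cannot be told apart.

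Each library held between 5771693 and 8073755 counts (median 7090332), so that 1 CPM stood for about 6 to 8 reads. All T37, T42, F20 and F23 libraries were read in run 3, all F27 and F29 libraries in run 1, and all P0 and P3 libraries in run 2. 6 animals were sequenced in more than 1 run and gave 15 libraries, which allowed the difference between runs to be measured in the same animals. Where values of several runs stand side by side below, the run is given.

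The values that chose the members are a description and carry no test. The difference between the T42 and T37 means ran from 0.71 to 3.11 log2 units with a median of 0.91, 39 members had a difference above 1, and 3 had one above 2. The lowest T42 animal lay above the highest T37 animal by 0.0064 to 1.96 log2 units with a median of 0.35, and in 27 members this gap was under 0.2. The last member, rank 100, had a difference of 0.7108, and the next gene outside had 0.7101, so the list ends within a continuous series of values.

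Rank 2, ENSOCUG00000005935, was a member in which the animals of the 2 ages were widely apart. It had 4.92, 6.33, 3.46 and 7.00 CPM in the T37 animals and 43.1, 31.7 and 30.1 CPM in the T42 animals. Its level had been low all along, from 3.73 to 5.88 CPM at F20 and from 2.72 to 13.7 CPM in the run 3 libraries of T31, and no library of any other age or of the preterm pups exceeded 15.1 CPM. Among the ages read in run 3 the gene was thus high at T42 alone. In the same animals it was higher in run 3 than in run 1, by 1.57 ± 0.22 log2 units. F27, F29, P0 and P3 were not read in run 3, so their values cannot be set directly beside T42.

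Rank 1 had a different shape. The T42 animals had 49.5, 45.5 and 50.1 CPM, and the T37 animals had 39.7, 13.6, 0.576 and 0.143 CPM. The libraries of all other ages lay between 9.02 and 71.8 CPM, so its place at the head of the list comes from 2 T37 animals with almost no reads and not from an unusual level at T42.

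No single T42 animal held most of the highest values: the highest T42 value was in animal 14 for 32 members, in animal 33 for 39 and in animal 50 for 29. The lowest T37 value was in animal 12 for 21 members, in animal 27 for 33, in animal 46 for 30 and in animal 47 for 16. The mean level of all members was 3.95 to 4.13 in the 4 T37 libraries and 5.02 to 5.13 in the 3 T42 libraries. As background for these ages, edgeR's quasi-likelihood test over 36 fetal and term animals called 6 of 15504 genes higher at T42 (0.0387%) and 0 lower (0.00%), a call requiring an adjusted p of at most 0.05 and a more than 2-fold change, with 1297 genes at an unadjusted p under 0.05. Nothing is read from this about the members, which were chosen on the same animals.

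**Figure D1:**
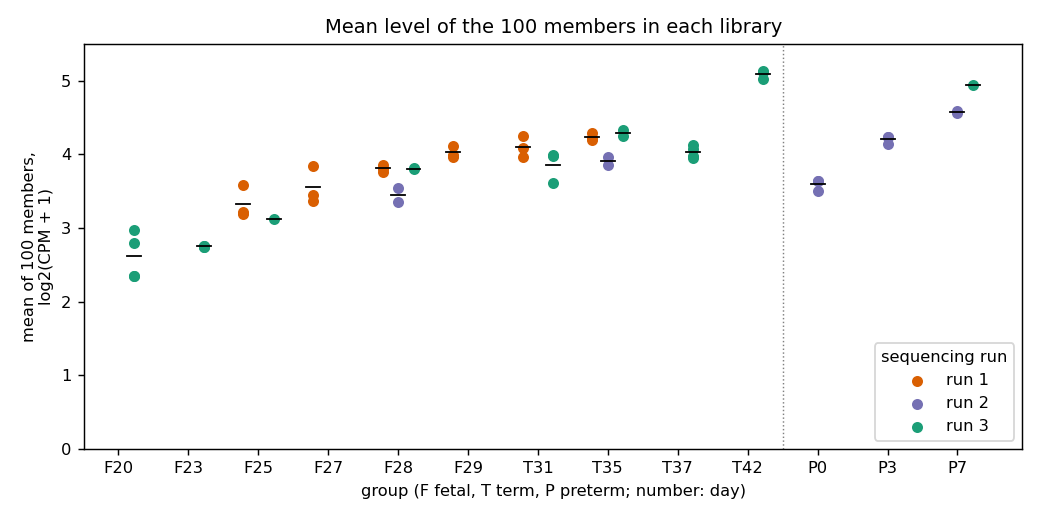
Mean log2(CPM + 1) of the 100 members in each of the 54 libraries (points), by group on the horizontal axis and coloured by sequencing run, with short black lines at the mean of each group and run. The F20 libraries lie at 2.35 to 2.97, the T37 libraries at 3.95 to 4.13 and the T42 libraries at 5.02 to 5.13, while P0 lies at 3.51 to 3.64 and P7 at 4.56 to 4.94.

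In the fetus most members were low. The median of the run 3 group means was 2.30 at F20, 2.44 at F23, 2.86 at F25 and 3.42 at F28, against 5.02 at T42, while the median of all 8804 genes that reached the T42 level stayed between 5.02 and 5.26 from F20 to T42. In 20 members the mean was under 1 at both F20 and F23, which was the case in 1.31% of the 8804 genes. F20 was the lowest of the run 3 groups up to T35 in 40 members, against 23.8% of the 8804 genes. These percentages are descriptions, since genes chosen for a high T42 value in run 3 are more likely to lie below it in the other groups of that run.

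The members did not all share the low fetal start. In 18 members at least 1 fetal mean reached or passed the T42 mean, against 78.5% of the 8804 genes. Of the groups from F20 to T35 the highest mean was at F20 in 13 members and at T35 in 48, against 29.5% and 15.5% of the 8804 genes, and it was at F28 in 17 and at T31 in 14, close to the 13.9% and 13.3% of the 8804 genes. The T42 mean was the highest of all run 3 groups in 74 members, and in 44 of them it exceeded every mean up to T35 by more than 0.5, against 9.95% and 2.64% of the 8804 genes. The list thus mixes genes that climbed from a low fetal level with genes that came back to a level held before birth.

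**Figure D2:**
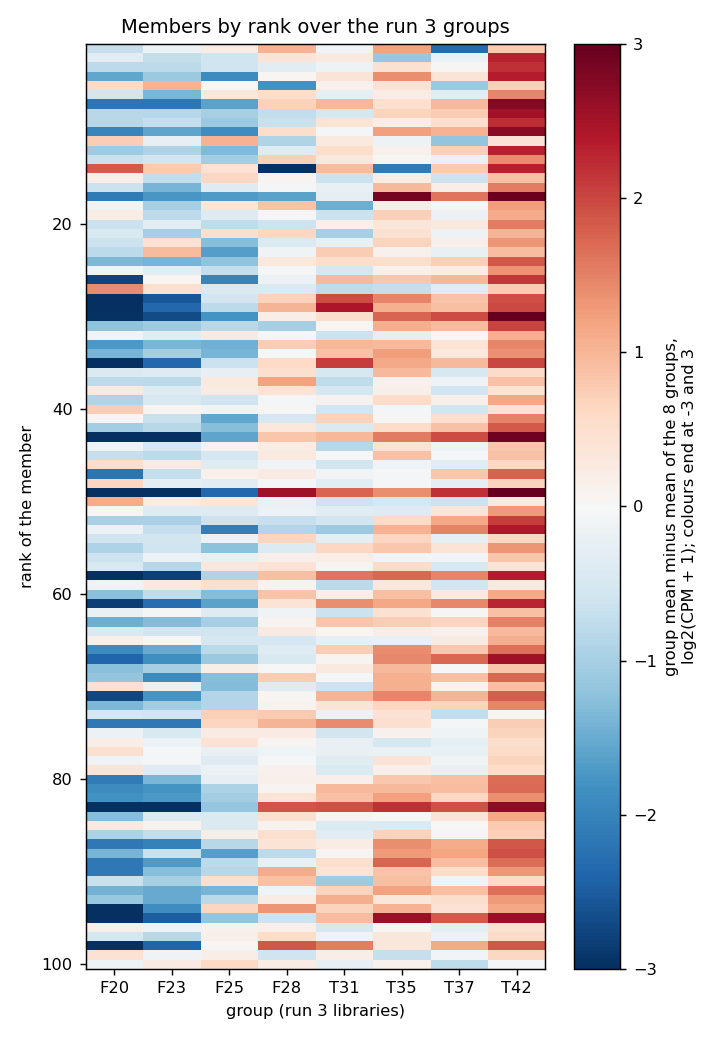
The 100 members by rank (rows) over the 8 groups with run 3 libraries (columns), coloured by the group mean minus the member's own mean over these groups in log2(CPM + 1). Blue at F20 and F23 and red at T42 mark the members that start low, and the T42 column is the highest in 74 members, T42 above T37 being a condition of the choice.

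The first tests on samples that did not choose the members compared F28 with F20, in 29 fetal and term animals with the run in the model. 55 of the 99 members tested were higher at F28 and 3 were lower, against 13.2% and 11.2% of the 15268 genes tested. The log2 fold change was positive in 78 members and its median was 1.36, beside -0.032 over all genes. A gain before birth was therefore frequent among genes that were later chosen for a gain after it. With at least 10 counts required in every library, 23 of 45 members were called and the median was 0.71. Of these members 20 were higher and 3 lower, against 969 and 962 of 8690 genes. 1 member had too few counts for this fit.

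The largest gain was that of rank 83. It had 0.311, 0.137, 0.273 and 0.276 CPM in the F20 animals, which is 1 or 2 reads each, and 0.69 to 2.5 CPM at F23. At F28 it had 169 and 157 CPM in the run 3 libraries and 94.7 CPM in the third animal, read in run 1. The fit gave a log2 fold change of 9.31 ± 0.57 (SE, edgeR adjusted p = 2.26e-12). Its later levels changed little by comparison, with 106 to 306 CPM at T31, 152 to 178 CPM at T37 and 241 to 314 CPM at T42.

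Rank 49 came on in the same interval. Its F20 animals had 0.155, 0.957, 0.819 and 0.965 CPM, the 3 F25 animals in run 1 had 3.98, 3.12 and 1.01 CPM, and the 3 F27 animals had 21.5, 3.41 and 64.9 CPM. At F28 the levels were 173 and 243 CPM in run 3 and 104 CPM in run 1, a log2 fold change of 8.11 ± 0.94 over F20 (edgeR adjusted p = 1.27e-07). The F27 animals were spread over a wide range between the low F25 and the high F28 values. At T31 its 6 animals ran from 36.4 to 303 CPM with a median of 77.1 CPM, and T35 and T37 overlapped that range.

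Ranks 28, 29 and 35 also rose in the fetus. Their log2 fold changes between F20 and F28 were 4.51 ± 0.55 (edgeR adjusted p = 2.76e-07), 5.58 ± 0.59 (2.73e-08) and 4.43 ± 0.52 (1.67e-07). The 3 members that went down between F20 and F28 were ranks 14, 27 and 50. Rank 27, ENSOCUG00000030247, had 246, 117, 86.4 and 98.4 CPM at F20 and 27.6 and 42.1 CPM in the run 3 libraries of F28, a log2 fold change of -1.74 ± 0.33 (edgeR adjusted p = 0.000128). It was 30.4 to 43.9 CPM at T37 and 71.3 to 86.3 CPM at T42, so that the T42 animals came back to just below the lowest F20 animal.

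**Figure D3:**
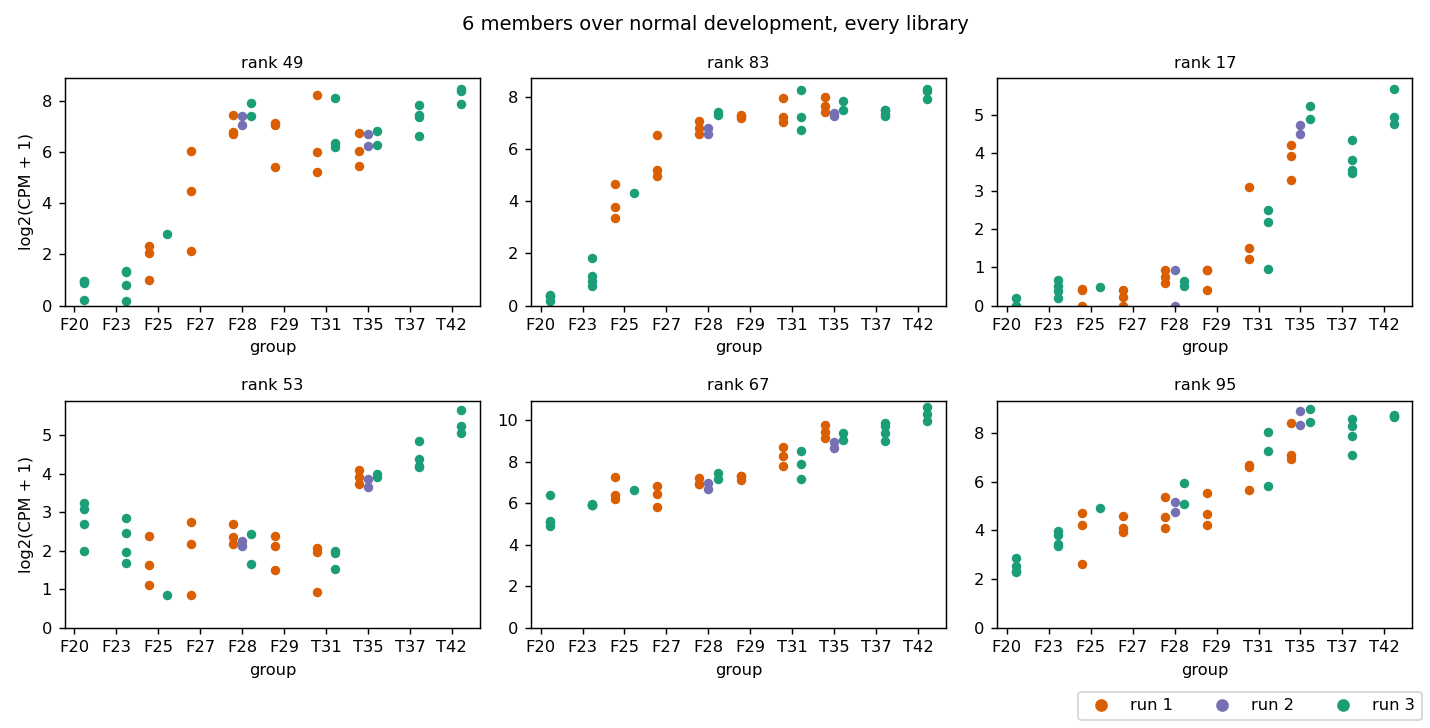
log2(CPM + 1) of 6 members in every library of the 10 fetal and term groups, coloured by sequencing run. Ranks 49 and 83 come on between F20 and F28, rank 17 between F28 and T35, rank 53 between T31 and T35, rank 67 climbs through most of the period, and rank 95 climbs to T35, with 346 and 510 CPM there in run 3, 135 to 380 CPM at T37 and 402 to 422 CPM at T42.

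Across term birth the members went both ways. From F28 to T31, 9 of 99 members were higher and 1 was lower, against 1.24% and 2.12% of all genes, with 49 positive changes and a median log2 fold change of -0.00015. The balance depended on which members and libraries were taken: it was positive in 33 of the 53 members called in no comparison of sequencing runs (described below), with a median of 0.57, in 66 members with the run 1 libraries alone, with a median of 0.22, and in 12 of the 45 members with at least 10 counts in every library, with a median of -0.26. Among the members higher at T31, ranks 17 and 95 had the largest changes, with log2 fold changes of 2.45 ± 0.65 (edgeR adjusted p = 0.0195) and 2.05 ± 0.43 (0.00456). Ranks 28, 29 and 35 rose again, by 1.59 ± 0.46, 1.64 ± 0.47 and 1.61 ± 0.44 on the log2 scale (edgeR adjusted p = 0.0299, 0.029 and 0.0223). Their run 3 means at T31, of 7.20, 8.03 and 7.36, were already at or above those of T42, of 7.17, 7.60 and 7.30. The run 3 means at T35 were lower, at 6.69, 6.67 and 6.43. The calls of this interval were less stable than those of the fetal interval. With 1 animal left out, 3 to 14 members were called (3 without F28 animal 7, 5 without F28 animal 9 and 6 without F28 animal 2). Without F28 animal 7, 74 genes were higher and 204 lower of 15244. Without the run in the model 1 member was called, which was lower, against 56 genes higher and 196 lower of 15268. The run 1 libraries alone gave 5 members higher and 0 lower, against 116 and 115 of 14600 genes. The run 3 libraries alone gave 3 higher and 4 lower, against 187 and 439 of 14300 genes.

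Rank 18, ENSOCUG00000012332, was the member that fell. In run 1 its 3 F28 animals had 227, 219 and 242 CPM and the 3 T31 animals had 143, 121 and 171 CPM. In run 3 its F28 animals had 42.0 and 43.0 CPM and its T31 animals 9.23, 7.32 and 6.81 CPM. The groups did not overlap in either run, and the log2 fold change over the 29 animals was -1.53 ± 0.33 (edgeR adjusted p = 0.00507). It was not called without the run in the model or with the run 1 libraries alone.

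Over the next 4 days the balance went up again. From T31 to T35, 7 of 99 members were higher and 0 were lower, against 2.00% and 0.596% of all genes. The change was positive in 72 members with a median of 0.34 log2 units. An unadjusted p under 0.05 was found in 28 members, against 3164 of the 15268 genes tested. DESeq2 called 8 higher and 2 lower, against 340 and 176 of the genes tested, and limma-voom 9 and 1, against 350 and 84. Without T35 animal 6 the number called was 4, against 178 genes higher and 29 lower. With the run 3 libraries alone it was 15, against 480 higher and 239 lower of 14300 genes. With the run 1 libraries alone it was 3, with a median of 0.18, against 132 and 54 of 14600 genes.

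Rank 53 was one of these. Its T31 animals had 0.89, 3.19 and 2.92 CPM in run 1 and 1.90, 2.95 and 2.85 CPM in run 3, and the T35 animals had 16.1, 13.99 and 12.3 CPM in run 1 and 14.2 and 15.1 CPM in run 3. No library of T31 reached any of T35, and the log2 fold change was 2.69 ± 0.44 (edgeR adjusted p = 0.000335). Before birth the gene had lain between 0.797 and 8.39 CPM, and afterwards it was 17.2 to 27.7 CPM at T37 and 32.2 to 49.7 CPM at T42. No fetal library reached the T35 range.

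Rank 17 rose at both steps. No F28 library of any run exceeded 0.908 CPM, the T31 animals ran from 0.95 to 7.59 CPM with a median of 2.72 CPM, and the T35 libraries had 8.81, 14.1 and 17.6 CPM in run 1 and 28.5 and 36.6 CPM in run 3. The log2 fold change between T31 and T35 was 2.82 ± 0.50 (edgeR adjusted p = 0.000863). T37 was lower than T35 within run 3, at 10.005 to 19.3 CPM, and T42 was 25.9 to 49.8 CPM, overlapping T35.

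Rank 67 rose by 1.37 ± 0.28 log2 units from T31 to T35 (edgeR adjusted p = 0.00363). Its run 3 libraries had 237, 360 and 140 CPM at T31, 521 and 669 CPM at T35, 503 to 928 CPM at T37 and 988 to 1609 CPM at T42. In all, 60 members were called higher in at least 1 of the 3 steps F20 to F28, F28 to T31 and T31 to T35, 1 was higher in all 3, and 36 were called in none, against 15.8%, 0.0131% and 73.3% of all genes. The 36 include rank 52, which had too few counts to be tested in these steps, while the percentages cover tested genes only.

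Between T35 and T37 many members went down within run 3 before they went up. The median of the group means was 3.98 at T35 and 3.61 at T37, and the T35 mean was above the T37 mean in 68 members, against 36.2% of the 8804 genes. In 12 members the T35 mean was at or above the T42 mean, against 42.2% of the 8804 genes, and in 7 the T37 mean was the lowest of all run 3 groups, against 3.81%. T37 values took part in the choice of the members, which favours genes that were low at T37, so these numbers are a description. In 32 members T35 was not above T37, a count that leaves out the earlier ages. Not all of these rose throughout. The run 3 mean of rank 98 fell from 7.75 (F28) to 6.22 (T35) before it reached 7.02 (T37). That of rank 99 fell from 4.62 (T31) to 3.73 (T35) before it reached 4.35 (T37).

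Preterm pups 7 days after delivery were compared with T35 pups in a fit of 21 animals, 1 library each, that held the 3 preterm groups with F28, T31 and T35, with the run in the model. 7 of the 100 members were higher at P7 and 0 were lower, against 0.254% and 0.00688% of the 14544 genes tested. The log2 fold change was positive in 82 members with a median of 0.54, beside 0.0014 over all genes, and 36 members had an unadjusted p under 0.05, against 1208 of all genes. In CPM, every P7 animal lay above every T35 animal in 39 members and below in 2, against 11.6% and 4.98% of the genes tested. The median stayed between 0.42 and 0.66 over all alternatives, and 72 to 88 members were positive under those that tested all 100 and 51 of 66 with at least 10 counts required in every library. The number called did not hold: it was 14 with DESeq2 (13 higher and 1 lower), 6 with limma-voom, all higher, and 14 with no filter on low counts. It was 1 when the run 1 libraries of the T35 and F28 animals were used. It was 1 to 5 when 1 animal was left out (1 without T35 animal 6, 2 without T35 animal 11, 3 without P7 animal 4, 4 without T35 animal 1). Calls over all genes moved as well. They were 37 higher and 1 lower in the main fit, 122 and 19 with DESeq2, and 49 and 6 with limma-voom. They were 112 and 19 with no filter, and 5 and 0 with the run 1 libraries.

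Rank 10, ENSOCUG00000002424, had the largest difference. The T35 libraries of the fit had 9.76 and 33.7 CPM in run 2 and 6.10 CPM in run 1, and the P7 animals had 172 and 1654 CPM in run 2 and 2550 CPM in run 3. The lowest P7 animal was above the highest T35 library of any run, while the P7 animals spread widely among themselves, and the log2 fold change was 5.95 ± 1.10 (edgeR adjusted p = 0.018). The same gene had 6.36, 8.90 and 6.64 CPM at P0 and 49.02, 587 and 1495 CPM at P3, all in run 2. In CPM the P3 and P7 levels were above the 37.3 to 44.6 CPM of T42, which was read in run 3. In the same animals the change of this gene from run 2 to run 3 was -0.78 ± 0.23 log2 units, so the lowest P3 value is not clearly above T42. The call was lost under 9 of 16 alternatives, limma-voom among them, with log2 fold changes from 5.22 to 7.00.

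Ranks 28, 29 and 35 formed the next group, with log2 fold changes of 3.02 ± 0.46 (edgeR adjusted p = 0.0042), 3.37 ± 0.53 (0.00563) and 3.20 ± 0.55 (0.011). For rank 28 the T35 libraries of the fit had 55.7 and 55.9 CPM in run 2 and 145 CPM in run 1, and the P7 animals had 430 and 575 CPM in run 2 and 1005 CPM in run 3. For rank 29 the T35 values were 83.2 and 88.9 CPM in run 2 and 74.5 CPM in run 1, and the P7 values were 980 and 1154 CPM in run 2 and 1008 CPM in run 3. For rank 35 the T35 values were 31.0 and 45.5 CPM in run 2 and 94.2 CPM in run 1, and the P7 values were 337 and 532 CPM in run 2 and 963 CPM in run 3. In all 3 the P7 animals were above every T35 library and also above the T42 animals, which had 113 to 186, 149 to 281 and 118 to 205 CPM. Their calls were lost under 2, 3 and 5 of 17 alternatives.

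Rank 80 varied little between runs at T35. Its T35 libraries ran from 30.4 to 47.01 CPM over all 3 runs, and its P7 animals had 111 and 118 CPM in run 2 and 96.9 CPM in run 3. The log2 fold change was 1.78 ± 0.23 (edgeR adjusted p = 0.00123), and 1 alternative of 17, with the run 1 libraries, lost the call. Rank 24, with 1.66 to 3.52 CPM at T35 and 13.9, 10.5 and 13.9 CPM at P7, had a log2 fold change of 1.92 ± 0.36 (edgeR adjusted p = 0.0187), which 6 of 16 alternatives lost. Rank 82 had 54.4 and 61.6 CPM in the run 2 libraries of T35 and 168 and 126 CPM in those of P7, with a log2 fold change of 1.15 ± 0.22 (edgeR adjusted p = 0.0192), which 7 of 17 alternatives lost. Rank 82 also differed between run 3 and run 1 in the same animals, by 1.69 ± 0.14 log2 units.

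**Figure D4:**
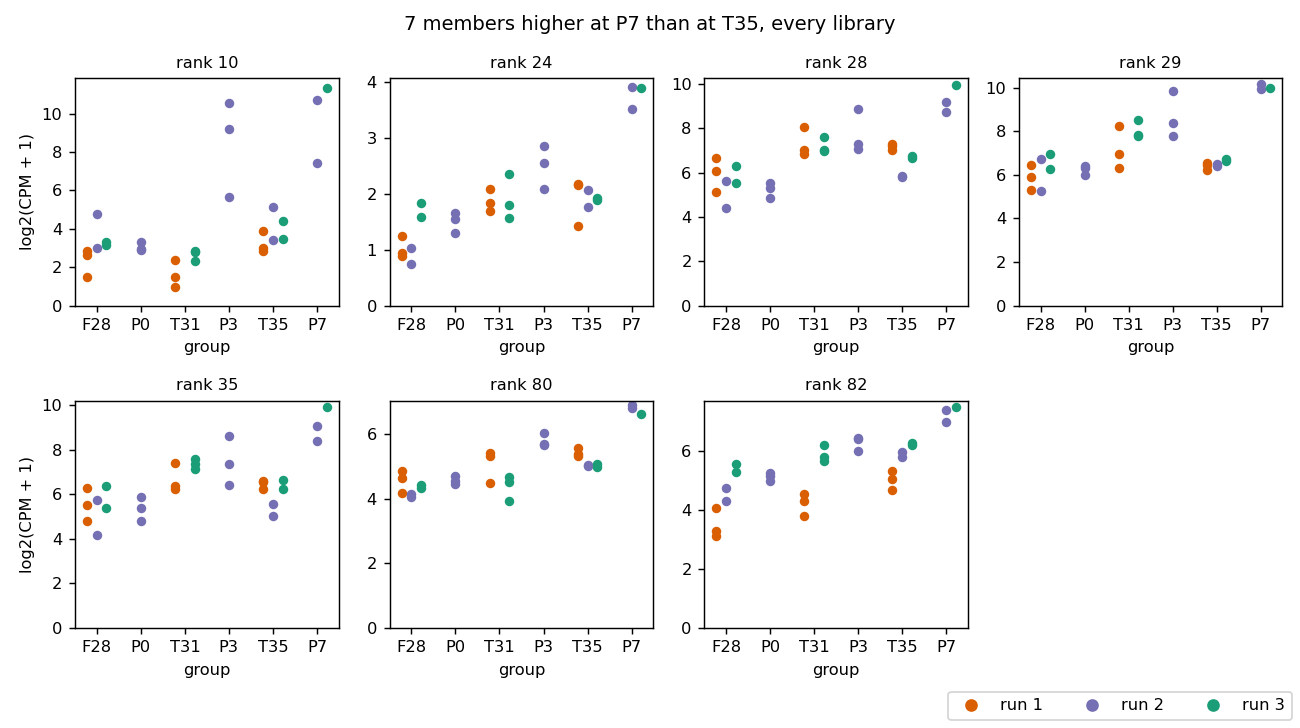
log2(CPM + 1) of the 7 members called higher at P7 than at T35, in every library of F28, P0, T31, P3, T35 and P7, coloured by sequencing run. The P7 points lie above all T35 points in each panel, and the P3 points of rank 10 spread from 49.02 to 1495 CPM.

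Within the preterm pups more members were called over the first week. From P0 to P7, 32 members were higher and 0 were lower, against 2.50% and 0.536% of all genes. The change was positive in 73 members with a median of 0.61 log2 units. An unadjusted p under 0.05 was found in 45 members, against 2240 of the 14544 genes tested. In CPM every P7 animal lay above every P0 animal in 47 members and below in 1, against 14.4% and 10.7% of all genes. DESeq2 called 39 higher and limma-voom 31, and both called 0 lower. Over all genes DESeq2 called 452 higher and 136 lower, and limma-voom 369 and 84. Leaving out 1 animal gave 25 to 32 members called, and 16 of 66 members were called, with a median of 0.40, when at least 10 counts were required in every library. With that filter all the called members were higher, against 218 of 9210 genes higher and 57 lower.

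The 7 members higher at P7 than at T35 were all among these 32, a count that rests on the same P7 animals in both comparisons. Apart from rank 10, with a log2 fold change of 7.44 ± 1.17 (edgeR adjusted p = 0.000689), the largest change was that of rank 17. It had 0.415, 0.674 and 0.289 CPM at P0, 26.5, 12.8 and 28.4 CPM at P3 and 24.7, 37.8 and 23.0 CPM at P7, a log2 fold change of 6.10 ± 0.78 (edgeR adjusted p = 0.000108). Its P3 and P7 levels overlapped those of T35 and T42, and its P7 to T35 difference was 0.56 ± 0.56 (edgeR adjusted p = 0.86). Rank 67 went from 102, 89.8 and 95.4 CPM at P0 to 681, 1525 and 1123 CPM at P7, by 3.38 ± 0.35 log2 units (edgeR adjusted p = 1.44e-05).

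Of the members already called higher at F28 than at F20, 24 of 55 were higher at P7 than at P0 and 7 of 55 were higher at P7 than at T35. Of the 41 members not called between F20 and F28, 7 were higher at P7 than at P0 and 0 were higher at P7 than at T35. The median change from P0 to P7 was 1.40 log2 units in the first set and 0.38 in the second. From T31 to T35 the sets were alike in their counts, with 4 of 55 and 3 of 41 members higher and medians of 0.31 and 0.36. They differed in the change between sequencing runs: from run 1 to run 3 the first set had 13 members higher and 0 lower with a median of 0.53, and the second 4 higher and 9 lower with a median of -0.11. No test of the difference between the sets was made, and the part of the run in it was not tested. The matching shares of all genes in the same sets were not counted, so these numbers have no background beside them.

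The term interval that matches the first preterm week in age from conception, F28 to T35, gave 14 members higher and 1 lower in the same fit, against 1.62% and 0.653% of all genes, with 63 positive changes and a median of 0.38 log2 units. The number called was 7 without the run in the model, 9 with the run 3 libraries used first, and 7, 8 and 9 without F28 animal 9, F28 animal 2 and T35 animal 6. Calls over all genes fell too, from 236 higher and 95 lower in the main fit. In these settings they were, in the same order, 114 and 52, 182 and 68, 90 and 47, 116 and 52, and 110 and 52. The median was 0.11 without T35 animal 11, with 53 members positive, and 0.075 over the 66 members with at least 10 counts in every library. 12 members were higher in both intervals, 20 from P0 to P7 but not from F28 to T35, and 2 the other way, against 0.908%, 1.59% and 0.715% of all genes. Whether the preterm and term changes differed was tested as an interaction, in which the F28 to T35 change is subtracted from that between P0 and P7. edgeR called 0 members, against 0.0344% of all genes called in either direction. At an unadjusted p under 0.05 there were 15 members, against 1135 of the 14544 genes tested. The interaction was positive in 70 members with a median of 0.53 log2 units. The median was 0.34 without F28 animal 7, 0.29 with the run 3 libraries first, 0.32 with the run 1 libraries first and 0.30 in run 2 alone. DESeq2 and the fit with no filter on low counts each called 4 members while limma-voom called 0. Over all genes DESeq2 called 35 higher and 27 lower, the fit with no filter 26 and 15, and limma-voom 0 and 0.

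Against the ages that chose the members, the preterm pups can be set only as a description and only in run 3, which holds 1 P7 animal. In this library 85 members were above their T37 mean and 40 were above their T42 mean. The choice favoured low T37 and high T42 values, which bears on both counts, and the shares over all genes were not counted. The mean level of this library over the members, 4.94, lay between the T37 libraries and the lowest T42 library. The other 2 P7 animals, read in run 2, had 4.56 and 4.59. Rank 2 was not part of this, with 2.44 and 4.52 CPM in the run 2 animals and 10.7 CPM in the run 3 animal, all below the 30.1 CPM of the lowest T42 animal.

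The sequencing run itself moved many members. In the 6 animals sequenced more than once, with the animal as a term of the model, 18 members were higher and 11 lower in run 3 than in run 1, against 11.4% and 17.2% of the 14360 genes tested. Run 2 against run 1 gave 12 higher and 19 lower, against 7.81% and 13.2%, and run 3 against run 2 gave 15 higher and 1 lower, against 0.975% and 1.92%. The change from run 2 to run 3 was positive in 84 members with a median of 0.38 log2 units, beside 0.022 over all genes. 2 of the 3 P7 animals and 2 of the 3 T35 animals in the preterm fit were read in run 2, the remaining P7 animal in run 3 and the remaining T35 animal in run 1, and the part of this difference in the P7 to T35 result was tested only through the run term and the alternatives above. A fit of the run 2 libraries alone, with 2 animals in each group, called 7 members, all higher, against 60 of 13791 genes higher and 8 lower.

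The 11 members lower in run 3 than in run 1 were all lower in run 2 than in run 1 as well. Rank 18 was one of them, with the values given above, and rank 14 was the most strongly affected, at -3.62 ± 0.36 log2 units between run 3 and run 1 (edgeR adjusted p = 3.78e-08). These 11 had a median T42 to T37 difference of 1.06, beside 0.91 for all members. 53 members were called in no comparison of runs. Among these, 43 had a positive change from T35 to P7 with a median of 0.47 log2 units and 4 were called, and 45 had a positive change from P0 to P7 with a median of 1.19 and 21 were called. The matching shares of all genes called in no comparison of runs were not counted, so these numbers have no background beside them.

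**Figure D5:**
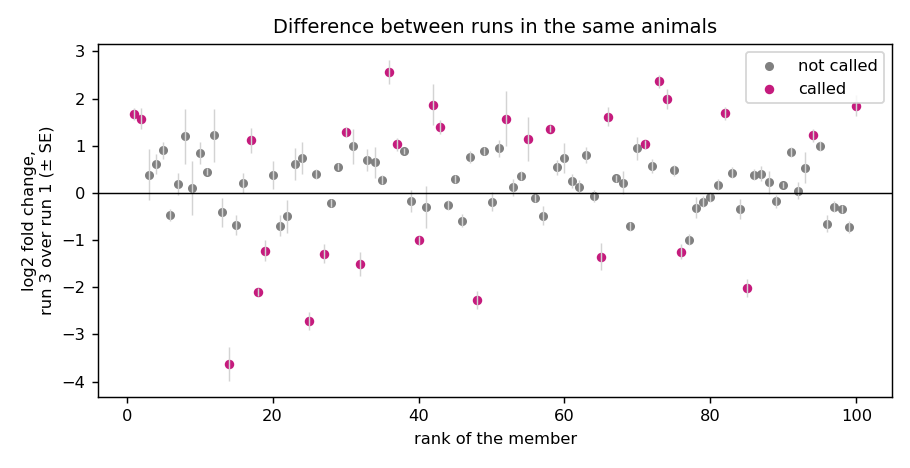
log2 fold change of each of the 100 members between run 3 and run 1 in the animals sequenced in more than 1 run (points, with bars for the standard error), against the rank of the member. The 18 members called higher and the 11 called lower are coloured, and rank 14 is the lowest at -3.62.

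Rank 14 also differed between animals in a way that repeated from run to run. F28 animal 2 had 1.17, 0.898 and 0.141 CPM in runs 1, 2 and 3, F28 animal 7 had 1.19 CPM in run 1 and 0.143 CPM in run 3, and T35 animal 11 had 0.138, 0.418 and 0.133 CPM. P7 animal 4 had 0.387 CPM. The libraries of all other animals had from 20.9 to 1353 CPM. These 4 animals stood apart from others of their own group, so the call of rank 14 between F20 and F28, at -3.46 ± 1.21 log2 units (edgeR adjusted p = 0.0243), rests on 2 F28 animals with almost no reads. Rank 11 also held 2 separate levels. T35 animal 6 had 1189, 1442 and 1645 counts in runs 1, 2 and 3, and T35 animal 11 had 5099, 6234 and 6168. T31 animals ran from 1205 to 7005 counts, T37 animals from 1367 to 1556 and T42 animals from 4282 to 4813. Rank 5 had 12, 6 and 9 counts in F28 animal 2, and 7 in T37 animal 27, against 118 to 215 in the other T37 animals. How far the sampled animals made the T42 to T37 difference of these members was not tested.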

How the data were processed

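Lung RNA was read from its 3′ ends with the QuantSeq FWD kit. The authors trimmed adapters with BBduk, used STAR for alignment to OryCun2.0 and HTSeq-count with Ensembl gene models for counting, with a script for reads in 3′ UTRs that are not annotated, and the deposited values are raw counts per gene. Whether the added 3′ UTRs are in the table, and the tool versions, are not given in the sources used here. The submitters' processing notes name FastQC, STAR, HTSeq and OryCun2.0. All 54 columns were mapped to animals by the library code in the titles, 0 columns were left unmapped and 0 pairs of libraries were identical.

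The members, lists and tests were chosen with earlier results of these data known. The rule used CPM, computed here from the counts. Groups were compared with edgeR 4.0.16 (quasi-likelihood test, TMM factors, at least 0.5 CPM in at least 3 libraries) in R 4.3.3, with Benjamini-Hochberg adjustment over all genes tested and calls where the adjusted p was at most 0.05 and the change more than 2-fold. The animal was the replicate. The development fit took 29 animals of F20 to T35, run 3 library first, then run 1, and the preterm fit 21 animals, run 2 first, then 3, then 1, and both had the run as a term. SE is the absolute log2 fold change divided by the square root of F, and does not include uncertainty beyond that test. DESeq2 1.42.0, limma 3.58.1, other filters and library choices, and leaving out 1 animal at a time were the alternatives. The fits were tested on simulated counts. Members were to be named by lists of gene symbols, and since 0 identifiers matched a symbol these lists were not applied and no sequence could be drawn from the reference. The members given by rank were picked for their results, which departs from the plan to count unnamed members only. Counting intervals would cover counting error alone, since the reads have no molecular identifiers.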

Additional observations from a re-analysis of the deposited data

Results flagged for a closer look

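Of 93 sets of 4 to 10 animals tested with Dixon's ratio in 23 members, 6 had 1 animal far from the others, where chance gives about 1 in 20. All 6 were at F20, in log2(CPM + 1). Animal 35 was the highest for rank 4 at 2.75 (next animal 0.86), rank 24 at 0.18 (the others 0, from 1 read), rank 35 at 3.18 (next animal 0.97) and rank 67 at 6.40 (next animal 5.12). Animal 1 was the highest for rank 17 at 0.21, from 1 read against 0, and the lowest for rank 49 at 0.21 (next animal 0.86). The F20 animals of ranks 35 and 67 stayed below all F28 libraries, so the direction of their change from F20 to F28 did not turn on animal 35. With animals left out in turn, the log2 fold change of rank 4 ran from 1.36 to 3.27.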

How the results depend on the processing

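The number of members called was within 1.5 times of the value reported under most alternatives, and the exceptions are these. Between F20 and F28 it was 58, with 23 when at least 10 counts were required in every library and 49 to 56 without 1 animal. Between F28 and T31 it was 10, with 1 without the run term, 5 with 10 counts in every library, 5 in run 1 alone, and 3 to 14 without 1 animal. Between T31 and T35 it was 7, with 3 under 10 counts in every library, 15 in run 3 alone, 3 in run 1 alone, and 4 to 10 without 1 animal. Between T35 and P7 it was 7, with 14 by DESeq2, 14 with no filter, 1 with the run 1 libraries first, and 1 to 5 without 1 animal. Calls over all genes moved with these settings too, as given above. Between P0 and P7 it was 32, with 16 under 10 counts in every library and 25 to 32 without 1 animal. Between F28 and T35 it was 15, with 7 without the run term, 9 with the run 3 libraries first, and 7 to 14 without 1 animal. For the interaction it was 0, with 4 by DESeq2, 4 with no filter, and 0 to 0 without 1 animal. The stricter filter tested 45 members in the development fit and 66 in the preterm fit. The other causes were not tested. The fits of single runs were chosen after seeing the data.

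Library totals without TMM factors shifted the median of all genes to -0.23 between F20 and F28, 0.12 between T35 and P7, -0.13 between F28 and T35 and 0.18 in the interaction, beside member medians of 1.14, 0.66, 0.24 and 0.69 log2 units. Without 1 animal the rule kept 64 to 85 of the 100 members in its list, with the fewest without T42 animal 14, and 97 to 100 still met the conditions. 67 stayed with a T42 minimum of 3.6 and 68 with 1.6.

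The replicate numbers do not pair the animals of different groups: for P0 and P7 the deviations of same-numbered animals had correlations of 0.0078, 0.058 and 0.18. With the replicate block, limma-voom called 58, 9, 10, 6, 31, 14 and 0 members in the 7 comparisons above, in that order. Of 932 values of single members given by rank, 834 kept direction and call, 97 kept direction and lost the call, and 1 reversed: rank 18 from F28 to T35, at -1.21 and 0.55 without the run term.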
